A study of Mus musculus with 6 samples.

Results

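The genes described here are 48 mouse genes of bone morphogenetic protein (BMP), Nodal, activin and transforming growth factor beta (TGF-beta) signalling, out of 52636 gene identifiers counted. They were chosen by name, with earlier results of these data known, as ligands, secreted inhibitors, receptors, Smad proteins, inhibitors inside the cell and Id genes. Each symbol was matched to 1 Ensembl gene. RNA was sequenced from 3 knockout (KO) and 3 wild-type (WT) libraries of E14, a mouse embryonic stem cell line. The KO cells lacked an enhancer cluster that the series title ties to HoxB activation, and the WT cells were E14 without that deletion. Cells of both groups had been kept in LIF with an inhibitor of MEK and one of GSK, and were then held for 4 days in retinoic acid at 5 µM (written µm in the labels) without those additions. The design text calls the replicates of each group biological; the number of KO clones and the place of the deletion are not given in the sources used here, so the p-values measure the spread between these libraries.

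Ligands of this family bind pairs of type I and type II receptor kinases at the cell surface. BMP receptors mainly pass the signal to Smad1, Smad5 and Smad9, while Nodal, activin and TGF-beta receptors pass it to Smad2 and Smad3, and both sets join Smad4 to enter the nucleus. Many of the genes they switch on, such as Lefty, Smad6, Smad7, Bambi and the Id genes, limit or relay the same signal. In differentiating stem cells, BMP and Nodal signals are known to hold back neural fates and to favour mesoderm and endoderm.

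The libraries held 7780368 to 8521902 gene counts in KO and 8208615 to 9472916 in WT. Within groups, Pearson correlations of log2 CPM across genes were 0.987 to 0.989, and between groups 0.918 to 0.920. Genes over ribosomal RNA repeats took 1.04% of the counts in KO replicate 1, against 0.0726 to 0.118% in the other 5 libraries, and mitochondrial genes took 2.58 to 2.89% in KO and 1.67 to 1.73% in WT. The series' design text calls the cells neural progenitors (NPC). Of the 8 markers listed for these, Nes (33.6 ± 3.49 CPM in KO and 231.4 ± 6.84 CPM in WT, SD, n = 3 each), Sox2 (26.7 ± 1.71 CPM in KO and 74.9 ± 2.63 CPM in WT) and Msi1 (34.9 ± 2.45 CPM in KO and 27.5 ± 1.83 CPM in WT) had the most counts. Zbtb16 (6.796 ± 0.932 CPM in KO and 3.38 ± 1.88 CPM in WT), Pax6 (4.76 ± 0.582 CPM in KO and 2.12 ± 0.209 CPM in WT) and Sox1 (1.84 ± 0.607 CPM in KO and 1.98 ± 0.521 CPM in WT) were low. Hes5 (1 count in all 6 libraries together) and Olig2 (0 to 3 counts per library) were at or near 0. CPM is the counts-per-million value after scaling between libraries.

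Marker lists of cell types differed between the groups, and their part in the results below was not tested. Over all lists, 16 of 40 tested markers (40%) were higher and 16 lower in KO by the edgeR test described below. Of all tested genes, 34.5% were higher and 34.0% lower. Primitive and visceral endoderm markers summed to 3807 to 3824 CPM in KO and 1476 to 1501 CPM in WT, most of it Lama1 (2811 ± 35.3 CPM in KO and 932.9 ± 17.3 CPM in WT). Of these 8 markers, 6 were higher, among them Lama1 (log2 fold change 1.59), Dab2 (1.07) and Gata6 (1.03), and Sox17 (-0.65) was lower. Parietal endoderm markers summed to 2872 to 2945 CPM in KO and 1251 to 1296 CPM in WT, nearly all of it Sparc (1.26), with Plat at 0.86, Stra6 at -0.30 and 2 of 4 in each direction. Pluripotency markers summed to 377.4 to 397.6 CPM in KO and 623.2 to 649.5 CPM in WT (2 of 5 higher, 3 lower, among them Nanog at -2.32, Zfp42 at -1.55 and Esrrb at -1.18). Neural progenitor markers summed to 100.9 to 113.3 CPM in KO and 336.9 to 350.5 CPM in WT (3 of 6 tested higher, 2 lower; Nes at -2.78, Sox2 at -1.49 and Pax6 at 1.16). The mesoderm and mesenchyme list summed to 297.4 to 304.5 CPM in KO and 440.1 to 469.2 CPM in WT, with 1 of 4 tested higher (Pdgfra, 1.22) and 2 lower (Col1a1, -1.71, and Twist1, -0.74), while T, Mixl1 and Tbx6 had too few counts to be tested. Most of the WT sum was Col1a1 (107.9 ± 2.42 CPM in KO and 352.9 ± 13 CPM in WT). Pdgfra went against the sum (175.5 ± 5.37 CPM in KO and 75.4 ± 6.34 CPM in WT).

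Neuron markers summed to 74.6 to 77.0 CPM in KO and 132.8 to 142.1 CPM in WT, with 1 of 4 tested higher and 2 lower (Tubb3 at -4.92, Map2 at 1.63 and Stmn2 at -0.25). Surface ectoderm and neural crest markers summed to 899.3 to 918.4 CPM in KO and 1917 to 1962 CPM in WT. Nearly all of it was Krt8 (497.5 CPM in KO and 1216 CPM in WT) and Krt18 (397.2 CPM in KO and 703.3 CPM in WT). By edgeR, 2 of 6 were lower (Krt8, -1.29, and Krt18, -0.82) and 0 higher, also 0 at an unadjusted p under 0.05 and by DESeq2 and limma-voom. Tfap2a, Sox10, Foxd3 and Pax3 had few counts and did not pass. Trophoblast markers summed to 29.6 to 30.3 CPM in KO and 33.3 to 38.2 CPM in WT. Of 3 tested, 1 was higher (Tfap2c, 0.31) and 2 lower (Cdx2, -1.36, and Eomes, -1.09), and Elf5 had 0 or 1 count per library. Cdx2, with 9, 30 and 12 counts in KO, against 38, 46 and 56 counts in WT, passed the filter on low counts through WT. In bulk RNA, fewer cells of a type and less RNA per cell cannot be told apart.

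The comparison asks how these genes differed between cells without and with the enhancer cluster. Of the 48 genes, 45 had enough counts to be tested, and 10 rose, 23 fell and 12 did not pass edgeR's quasi-likelihood test at an adjusted p of 0.05. Over all 15816 genes tested, 68.6% passed, so the 73.3% of tested members that did is near the background. By direction, 22.2% of tested members were higher in KO, against 34.5% of all tested genes, and 51.1% were lower, against 34.0%. A log2 fold change of -1 or less was seen in 11 members, 24.4% of those tested, against 9.47% of all tested genes. No tested member reached 1 in the other direction by edgeR, DESeq2 or limma-voom, adjusted or at an unadjusted p under 0.05, where 11.5% of all tested genes did by edgeR. The members' median log2 fold change was -0.23, against 0.0091 for all tested genes, and the median of its size was 0.52, against 0.49. Inhba, Inhbb and Lefty1, which are among the 11, passed the filter on low counts through their WT libraries, so their being tested favoured a fall. The members were also chosen with earlier results of these data known. The shares of members therefore describe this list, and whether the pathway fell more than other genes was not tested. The 3 KO values of 34 tested members (75.6%) did not overlap the 3 WT values, as in 70.9% of all tested genes. The counts by role and list below are of few genes each, and their background is the 34.5% higher and 34.0% lower of all tested genes.

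**Figure D1:**
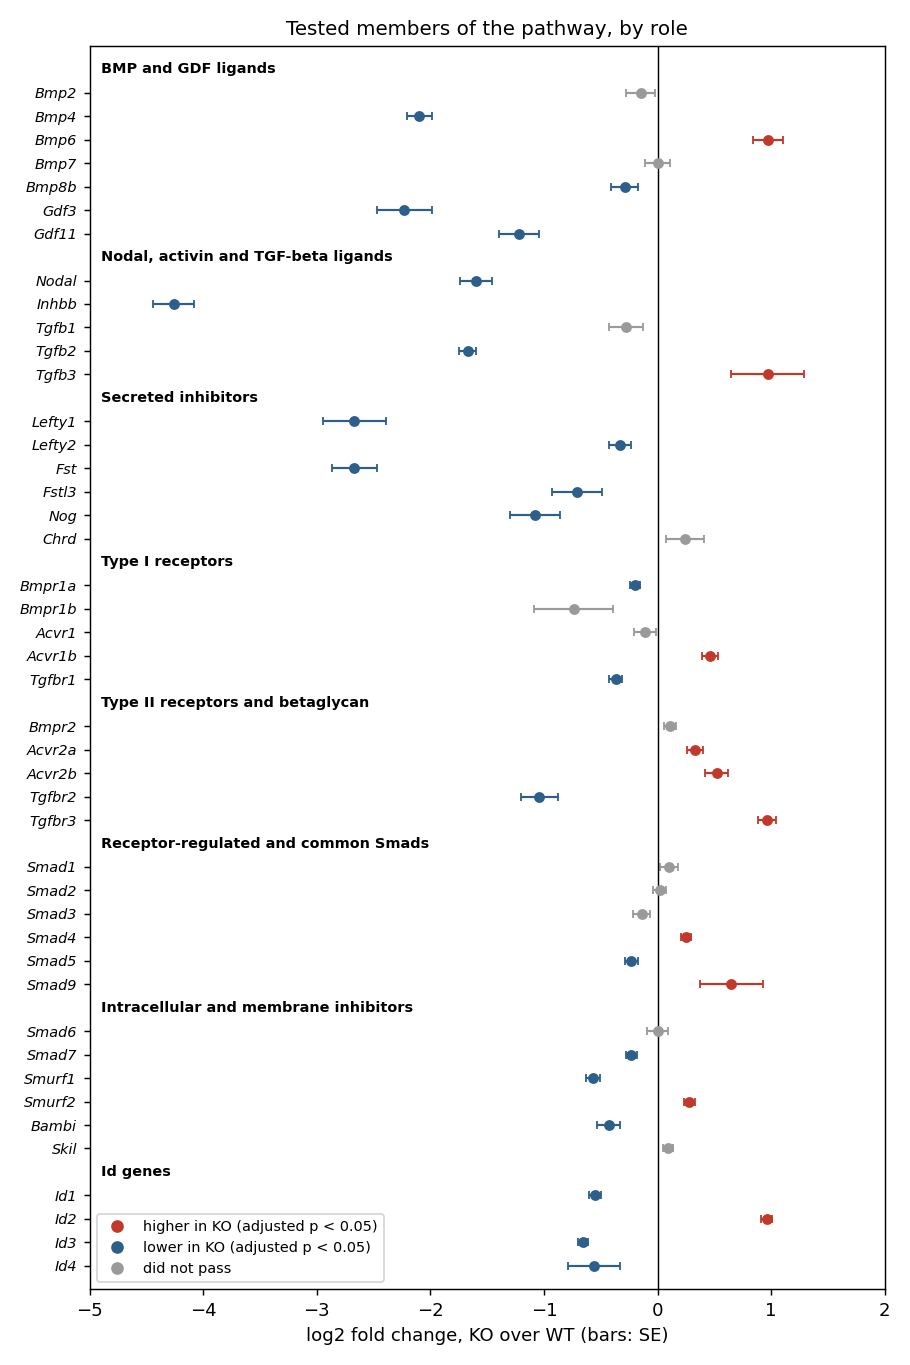
Log2 fold change (KO over WT, horizontal axis, bars SE) of 44 tested members, grouped by role. Blue points are lower and red points higher in KO at an adjusted p under 0.05, grey points did not pass. The falls reach -4.26 for Inhbb, while the highest rises stop at 0.97 (Bmp6 and Tgfb3); Inhba, with 0 counts in every KO library, is not drawn.

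Among BMP and GDF ligands, 1 of 7 tested rose, 4 fell and 2 did not pass. Bmp4, the ligand best known for holding back neural fate and inducing mesoderm (ENSMUSG00000021835, GRCm38 chromosome 14, 46383520 to 46390669), had 10.7, 14.3 and 14.1 CPM in KO, against 52.7, 59.1 and 55.8 CPM in WT. Every KO library lay far below every WT library, and the log2 fold change was -2.10 (SE 0.11, n = 3 per group; edgeR quasi-likelihood test, Benjamini-Hochberg adjusted p = 2.02e-15). Bmp6, a ligand of the same class as Bmp7, had 32.5, 36.4 and 29.4 CPM in KO, against 13.1, 17.8 and 19.3 CPM in WT. The groups did not overlap, and Bmp6 rose by 0.97 on the log2 scale (SE 0.13; adjusted p by edgeR 1.82e-07). Txndc5, which runs in the opposite direction, overlaps 5.74% of the Bmp6 exons by length. Reads from that overlap were not told apart, and their part in the rise was not tested.

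Bmp7 had 23.6, 25.2 and 22.8 CPM in KO, against 24.7, 23.7 and 22.9 CPM in WT, with groups that overlapped and a log2 fold change of 0.00 (SE 0.11). Bmp2, the closest relative of Bmp4, had 13.5, 13.5 and 14.3 CPM in KO, against 16.7, 14.6 and 14.5 CPM in WT (log2 fold change -0.15, SE 0.13). Its KO libraries all lay just below the WT ones, but neither of these 2 genes passed the test.

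Bmp8b, a ligand involved in the making of germ cells, had 23.6, 19.97 and 25.8 CPM in KO, against 29.2, 24.2 and 31.9 CPM in WT. The groups overlapped, the log2 fold change was -0.29 (SE 0.12), and exons of genes on the other strand cover 12.2% of its exon length. The call was lost with upper-quartile scaling (adjusted p by edgeR 0.0555), with DESeq2 (0.0532) and without KO replicate 2 (0.158), WT replicate 1 (0.0705) or WT replicate 3 (0.158). Bmp5 had 4 to 13 counts per library and was not tested.

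Gdf3, a Nodal-like ligand of pluripotent cells, had 2.83, 2.00 and 1.41 CPM in KO, against 10.2, 9.47 and 9.45 CPM in WT (log2 fold change -2.23, SE 0.24). Gdf11, a ligand that patterns the trunk along the body axis, had 8.25, 5.99 and 5.15 CPM in KO, against 16.6, 12.3 and 16.2 CPM in WT (-1.22, SE 0.18). For both genes the KO libraries were the lower ones with no overlap.

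The promoter of Bmp4 is shown because this gene had the largest fall of the 5 tested members named Bmp. It runs from 250 bases before to 50 after the start given by RefSeq (GRCm38.p6, chr14:46390620-46390919, minus strand), in which none of the 4 Smad-pathway motifs searched was found.
Bmp4: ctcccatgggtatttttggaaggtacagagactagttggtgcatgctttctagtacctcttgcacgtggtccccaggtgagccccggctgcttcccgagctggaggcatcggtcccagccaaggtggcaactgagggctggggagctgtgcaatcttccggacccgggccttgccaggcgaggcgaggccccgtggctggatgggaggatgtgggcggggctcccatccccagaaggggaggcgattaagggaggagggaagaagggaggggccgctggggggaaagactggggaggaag
The motifs were GGCGCC (a GC-rich element of Smad1 and Smad5), GTCTAGAC (a palindromic Smad element), CAGACA (the CAGA box) and AATCCACA (a Foxh1 element), each on both strands. Of the 48 members, 33 had at least 1 promoter in the table, 38 promoters in all. GGCGCC was in 31.6% of these and in 11.9% of all 32851 promoters of the same length, and the median GC content was 66.7% for the members' promoters and 52.7% for all. CAGACA was in 26.3% of member promoters and in 21% of all, GTCTAGAC in 2.63% and 0.213%, and AATCCACA in 0% and 0.855%. These matches describe letters in the window only.

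Of 6 Nodal, activin and TGF-beta ligands, which act through Smad2 and Smad3, 1 rose, 4 fell and 1 did not pass. Their median log2 fold change was -1.64. Inhba and Inhbb passed the filter on low counts through their WT libraries, so their being tested favoured a fall in this count and median. Inhbb, the beta B subunit that forms activin B (ENSMUSG00000037035, chromosome 1, 119415465 to 119422248), had 14, 9 and 13 counts in KO, against 258, 255 and 233 counts in WT. That is 1.80, 1.12 and 1.52 CPM in KO, against 30.5, 27.1 and 28.6 CPM in WT. The highest KO library lay far below the lowest WT library, and the log2 fold change was -4.26 (SE 0.18; adjusted p by edgeR 7.76e-17). Inhba, the beta A subunit of activin A, had 0 counts in all 3 KO libraries, against 21, 14 and 19 counts in WT, and was at least 16.8-fold lower in KO when the KO group as a whole is set at 3 counts, a limit for counting error only.

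Nodal, which patterns the early embryo and induces mesoderm and endoderm, had 8.503, 9.48 and 6.68 CPM in KO, against 26.3, 24.7 and 23.6 CPM in WT. The groups stood well apart, with a log2 fold change of -1.60 (SE 0.14). Tgfb2 had 28.9, 27.0 and 28.2 CPM in KO, against 81.4, 94.9 and 90.9 CPM in WT, and a log2 fold change of -1.67 (SE 0.075; adjusted p by edgeR 2.13e-16). Its 3 KO libraries lay close together, well below each WT library.

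Of the other TGF-beta ligands, 1 did not pass and 1 rose. Tgfb1 had 11.9, 14.3 and 9.84 CPM in KO, against 15.3, 15.5 and 12.9 CPM in WT, overlapping groups and a log2 fold change of -0.28 (SE 0.15). Tgfb3 rose by 0.97 on the log2 scale (SE 0.32) from few counts, 30, 37 and 25 in KO, against 18, 14 and 18 in WT. Exons on the other strand cover 12.4% of its exon length, and the call was lost without KO replicate 2 (adjusted p by edgeR 0.0551).

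**Figure D2:**
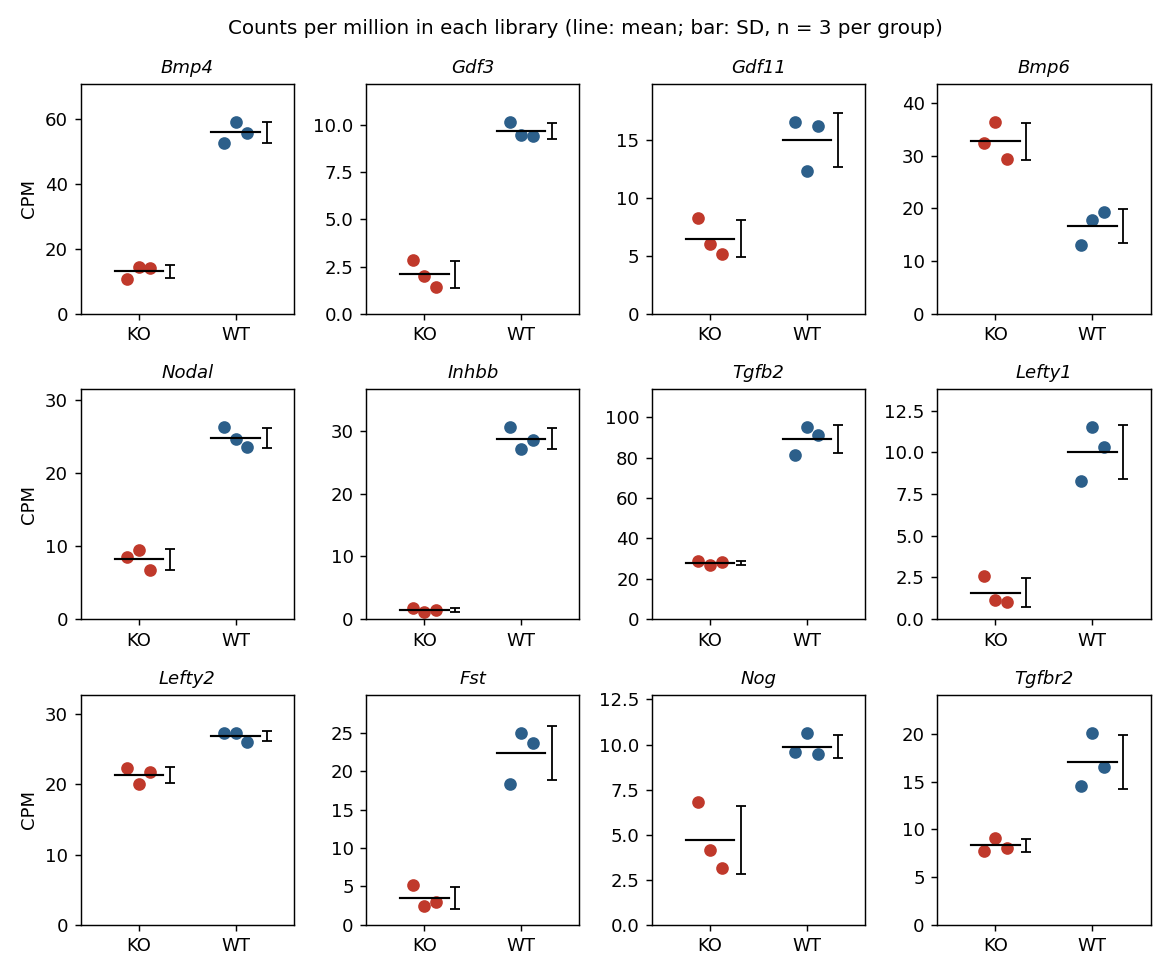
CPM (vertical axis) in each library (points), with the mean (line) and SD (bar), n = 3 per group, KO left and WT right in each panel, for 12 members. All panels but that of Bmp6 have KO below WT, and in none do the groups overlap; Inhbb shows the widest gap and Lefty2 a narrow one.

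Secreted inhibitors, which bind ligands or their receptors outside the cell, fell in 5 of 6 tested and rose in 0 by edgeR (0 also at an unadjusted p under 0.05, by DESeq2 and by limma-voom). Of all tested genes, 34.0% were lower and 34.5% higher by edgeR. Fst encodes follistatin, which traps activins. Its values were 5.15, 2.50 and 2.93 CPM in KO, against 18.3, 24.99 and 23.7 CPM in WT, with a log2 fold change of -2.67 (SE 0.20). Lefty1, a Nodal inhibitor that Nodal itself induces, had 2.58, 1.12 and 1.05 CPM in KO, against 8.28, 11.5 and 10.3 CPM in WT (-2.67, SE 0.28). In both genes KO replicate 1 was the highest KO library and still lay below all of WT. Lefty1 passed the filter on low counts through WT, so its being tested favoured a fall.

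Lefty2, which lies beside Lefty1 on chromosome 1, had 22.3, 20.1 and 21.8 CPM in KO, against 27.3, 27.3 and 26.0 CPM in WT, and fell by 0.33 on the log2 scale (SE 0.10). The 2 genes share sequence: 17.9% of the distinct 50-base stretches of Lefty1 transcripts also occur in transcripts of other genes, chiefly Lefty2. Reads that lie wholly within shared sequence cannot be placed, and how many did so was not tested. Lefty1 made up 9.67 ± 4.34% of the pair's level per length of exon in KO and 35.5 ± 3.93% in WT (SD, n = 3 each).

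Nog encodes noggin, which traps BMPs. It had 6.83, 4.12 and 3.16 CPM in KO, against 9.58, 10.6 and 9.45 CPM in WT (log2 fold change -1.08, SE 0.22), with KO replicate 1 nearest to WT. Chrd encodes chordin, a BMP trap too, and at 11.1 ± 1.86 CPM in KO and 9.45 ± 1.77 CPM in WT did not pass (0.24, SE 0.17). Fstl3, a relative of follistatin, was at -0.71 (SE 0.22) and passed, but exons of Prss57 on the other strand cover 47.3% of its exon length and reads of the 2 genes are not separated. Grem1 had 1 to 8 counts per library and Cer1 0 in KO and 0 or 1 in WT, and neither was tested.

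Of 5 type I receptors, the kinases that phosphorylate Smads, 1 rose, 2 fell and 2 did not pass. Acvr1b, a receptor for activin and Nodal, had 79.7, 80.1 and 70.4 CPM in KO, against 60.0, 53.7 and 53.4 CPM in WT, and rose by 0.46 (SE 0.068). Tgfbr1, the type I receptor for TGF-beta, had 69.4, 71.6 and 67.9 CPM in KO, against 90.3, 88.5 and 91.3 CPM in WT, and fell by 0.37 (SE 0.054). Bmpr1a, a BMP receptor, fell by 0.20 (SE 0.045), to 133.6 ± 1.99 CPM in KO, against 153.1 ± 3.50 CPM in WT. Acvr1 was at -0.11 (SE 0.098), and Bmpr1b, at 1.65 ± 0.355 CPM in KO and 2.75 ± 0.702 CPM in WT, was at -0.74 (SE 0.35); neither passed.

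Of the type II receptors and betaglycan, 3 of 5 rose, 1 fell and 1 did not pass. The activin and Nodal receptors Acvr2a and Acvr2b rose by 0.33 (SE 0.072) and 0.52 (SE 0.10). Orc4, which runs in the opposite direction, overlaps 7.84% of the Acvr2a exons by length, and reads from that overlap were not told apart. Tgfbr3, betaglycan, a coreceptor that presents TGF-beta2 and helps inhibin bind, had 52.4, 54.8 and 55.2 CPM in KO, against 27.8, 28.1 and 27.9 CPM in WT, and rose by 0.96 (SE 0.080; adjusted p by edgeR 6.07e-11). Tgfbr2, the type II receptor for TGF-beta, had 7.73, 9.11 and 8.08 CPM in KO, against 14.5, 20.1 and 16.6 CPM in WT, and fell by 1.04 (SE 0.16). Both receptor genes had groups far apart, in opposite directions. Bmpr2, at 96.8 ± 4.64 CPM in KO and 89.8 ± 4.71 CPM in WT, was at 0.11 (SE 0.053) and did not pass, though it did with upper-quartile scaling (adjusted p by edgeR 0.0181) and without KO replicate 3 (0.0315) or WT replicate 3 (0.0344).

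Of the Smads that carry the signal, 2 of 6 rose, 1 fell and 3 did not pass. Smad2 (0.02, SE 0.058), Smad3 (-0.14, SE 0.073) and Smad1 (0.10, SE 0.082) did not pass. Smad4, the common partner, had 167.5, 168.1 and 166.7 CPM in KO, against 149.4, 136.7 and 136.7 CPM in WT, and rose by 0.25 (SE 0.046), while Smad5 fell by 0.23 (SE 0.059). Smad9 rose by 0.65 (SE 0.28) at low counts, 71, 34 and 48 in KO, against 24, 34 and 46 in WT. The groups overlap, and the call was lost with DESeq2 (adjusted p 0.0791), limma-voom (0.0507) and edgeR without KO replicate 1 (0.383), WT replicate 1 (0.18) or WT replicate 2 (0.112). The summed level per length of Smad1, Smad5 and Smad9 was 17.7 ± 0.656 RPKM in KO and 18.4 ± 0.633 RPKM in WT, and that of Smad2 and Smad3 was 19.6 ± 0.777 RPKM in KO and 20.4 ± 0.806 RPKM in WT (SD, n = 3 each). RPKM is CPM divided by the kilobases of exon.

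Inhibitors inside the cell and at its membrane fell in 3 of 6, rose in 1 and did not pass in 2. Smurf1, a ubiquitin ligase that marks Smads and receptors for breakdown, had 64.4, 60.4 and 57.0 CPM in KO, against 92.7, 90.4 and 87.1 CPM in WT, and fell by 0.57 (SE 0.060). Its paralog Smurf2 rose by 0.28 (SE 0.050), with 96.3 ± 1.94 CPM in KO and 79.3 ± 0.775 CPM in WT. Bambi, a pseudoreceptor that blocks type I receptors, fell by 0.43 (SE 0.10) and Smad7, an inhibitory Smad, by 0.23 (SE 0.048). Skil, a corepressor of Smads, was at 0.09 (SE 0.043) and did not pass, but did so under 6 of the alternatives, with adjusted p from 0.0101 (edgeR with upper-quartile scaling) to 0.0489 (edgeR without WT replicate 3).

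Smad6, the inhibitory Smad of the BMP branch, had 42.8, 38.7 and 51.7 CPM in KO, against 42.2, 45.1 and 46.4 CPM in WT, with a log2 fold change of -0.00 (SE 0.090). Its promoter is shown because it was the only one of the 38 with GTCTAGAC, whose letters, in capitals, begin 4 bases before the start given by RefSeq (GRCm38.p6, chr9:64022010-64022309, minus strand).
Smad6: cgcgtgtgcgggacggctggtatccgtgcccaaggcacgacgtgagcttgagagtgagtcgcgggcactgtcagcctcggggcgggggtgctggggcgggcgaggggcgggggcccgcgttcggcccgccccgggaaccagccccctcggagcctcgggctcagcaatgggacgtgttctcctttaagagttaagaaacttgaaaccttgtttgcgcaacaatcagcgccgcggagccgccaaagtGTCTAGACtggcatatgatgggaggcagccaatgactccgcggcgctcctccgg

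Id proteins bind other helix-loop-helix factors and keep them off DNA, and Id1, Id2 and Id3 are well-known direct targets of BMP signals. All 4 passed the test, as did 68.6% of all tested genes, but not in 1 direction. Id1 had 155.9, 149.4 and 134.7 CPM in KO, against 207.8, 223.5 and 210.2 CPM in WT, and fell by 0.55 (SE 0.050). Id3 had 136.2, 139.3 and 143.8 CPM in KO, against 222.7, 224 and 215.4 CPM in WT, and fell by 0.66 (SE 0.044; adjusted p by edgeR 5.93e-13). Id2 had 158.5, 150.0 and 158.3 CPM in KO, against 75.0, 82.2 and 82.8 CPM in WT, and rose by 0.96 (SE 0.050; adjusted p by edgeR 4.56e-15). The libraries of the 2 groups were apart in all 3 genes, as in 70.9% of all tested genes. Id2 changed in the opposite direction to Id1 and Id3.

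Id4, at 35, 30 and 35 counts in KO, against 41, 69 and 49 counts in WT, was at -0.56 (SE 0.23), which is 4.51, 3.74 and 4.10 CPM in KO, against 4.85, 7.34 and 6.01 CPM in WT. Its call was lost with DESeq2 (adjusted p 0.0793) and by edgeR without KO replicate 2 (0.0953), KO replicate 3 (0.0623), WT replicate 2 (0.185) or WT replicate 3 (0.0561).

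The promoters of Id2 and Id3 are shown as those of a rising and a falling Id gene, from RefSeq (GRCm38.p6). Id2 (chr12:25096043-25096342, minus strand) has 1 GGCGCC, in capitals, 231 bases before the start, and Id3 (chr4:136143572-136143871, plus strand) holds none of the 4 motifs in this window.
Id2: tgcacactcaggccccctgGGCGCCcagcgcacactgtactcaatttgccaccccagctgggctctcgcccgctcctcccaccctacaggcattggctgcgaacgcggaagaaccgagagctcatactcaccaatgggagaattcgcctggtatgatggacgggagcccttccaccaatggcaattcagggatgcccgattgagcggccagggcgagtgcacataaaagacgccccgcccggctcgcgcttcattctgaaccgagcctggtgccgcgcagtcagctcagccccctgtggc
Id3: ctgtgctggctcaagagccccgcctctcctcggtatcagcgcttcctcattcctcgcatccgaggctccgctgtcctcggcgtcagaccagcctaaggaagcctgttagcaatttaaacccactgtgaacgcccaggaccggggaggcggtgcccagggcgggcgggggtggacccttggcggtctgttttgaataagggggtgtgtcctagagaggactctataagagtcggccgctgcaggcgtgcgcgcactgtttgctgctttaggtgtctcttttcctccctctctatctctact

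The make-up of the families changed with these genes. These shares are per length of exon within a library, so scaling between libraries does not enter, and with 3 against 3 libraries an exact permutation test cannot go below a two-sided p of 0.1. Id2 held 23.7 ± 0.957% of the Id level in KO and 9.60 ± 0.460% in WT (SD, n = 3 each), and Id1 46.9 ± 2.33% in KO and 53.9 ± 0.573% in WT. Bmp4 held 19.1 ± 2.34% of the level of 6 BMP ligands in KO and 53.0 ± 2.25% in WT, and Bmp6 27.8 ± 2.65% in KO and 9.12 ± 1.52% in WT. In WT, Bmp4 stood clearly first among these ligands. In KO, Bmp6 stood first, while Bmp8b (19.7 ± 2.90%), Bmp7 (19.6 ± 0.842%) and Bmp4 did not differ beyond their spread. With the longest transcript as length, Bmp6 still led in KO (26.8%), ahead of Bmp8b (23.2%). Bmp6 and Bmp8b each overlap genes of the opposite strand in part, as given above, and the effect on these shares was not tested. The summed level of the 6 was 29.0, 31.3 and 30.4 RPKM in KO, against 45.5, 47.3 and 47.9 RPKM in WT, and that of Nodal, Inhba and Inhbb was 4.27 ± 0.649 RPKM in KO and 18.9 ± 1.00 RPKM in WT. Nodal held 91.6 ± 2.48% of that sum in KO and 62.6 ± 1.37% in WT, and Tgfb2 held 58.2 ± 5.46% of the TGF-beta ligands in KO and 81.6 ± 1.95% in WT.

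**Figure D3:**
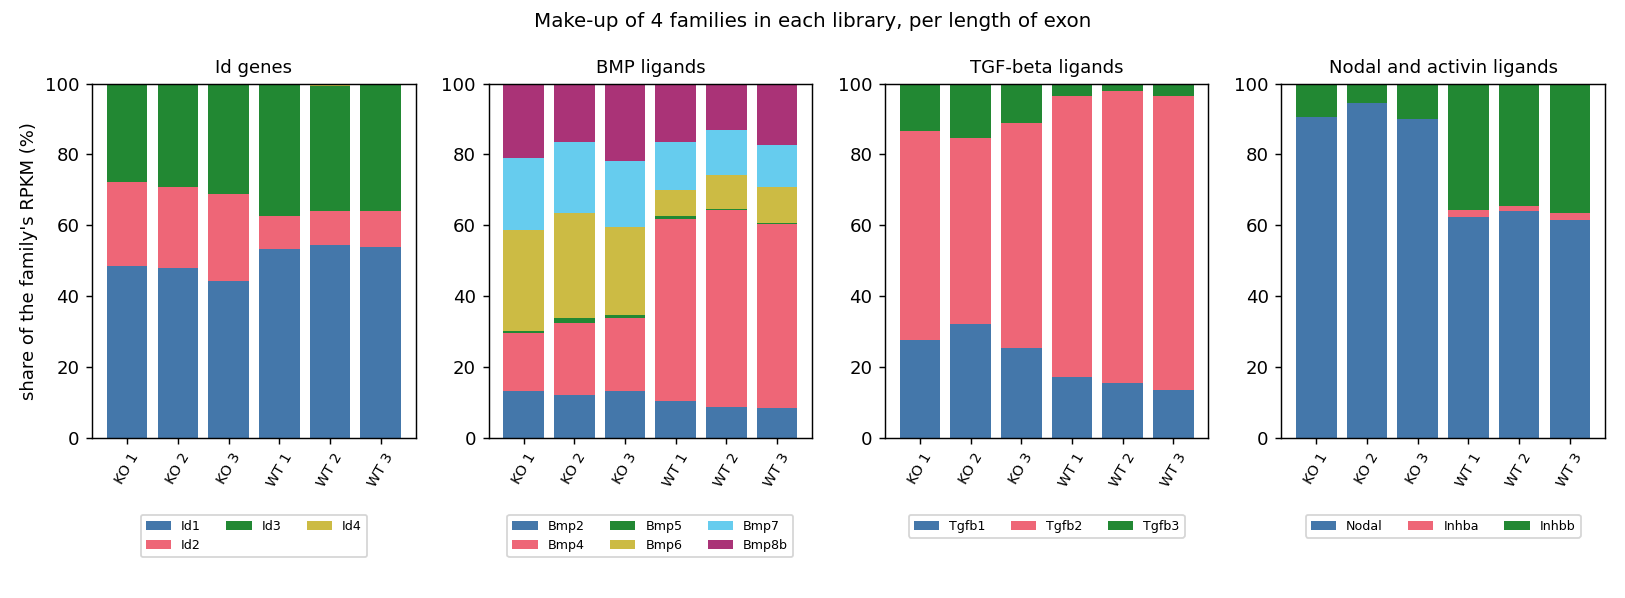
Share of each gene (percent of the family's RPKM, vertical axis) in each of 3 KO and 3 WT libraries, for 4 families. Id2 fills 22.9 to 24.7% of the Id column in KO and 9.17 to 10.1% in WT, and Bmp4 16.4 to 20.5% of the BMP column in KO and 51.6 to 55.6% in WT.

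Per length, Id1 and Id3 stood highest among the members in both groups, and Id4 stood low (1.07 ± 0.0995 RPKM in KO and 1.58 ± 0.324 RPKM in WT). Id1 was at 126 ± 9.36 RPKM in KO and 184 ± 7.28 RPKM in WT and Id3 at 78.0 ± 2.15 RPKM in KO and 123 ± 2.60 RPKM in WT. Id2 came next in KO (63.8 ± 1.99 RPKM), but in WT (32.8 ± 1.79 RPKM) it lay below Smad4 (38.0 ± 1.97 RPKM) and level with Smad7 (33.4 ± 1.44 RPKM). With the longest transcript as length, Id2 in WT (40.6 RPKM) was close to Smad4 (41.6 RPKM), above Smad7 (35.3 RPKM). Bmp4 was at 5.80 ± 0.904 RPKM in KO, among the levels of Bmp7 (5.94 ± 0.301 RPKM) and Bmp8b (5.95 ± 0.755 RPKM), against 24.9 ± 1.42 RPKM in WT, where it was level with Bmpr1a (24.1 ± 0.550 RPKM). At the low end Inhbb was at 0.349 ± 0.0804 RPKM in KO and 6.75 ± 0.399 RPKM in WT.

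**Figure D4:**
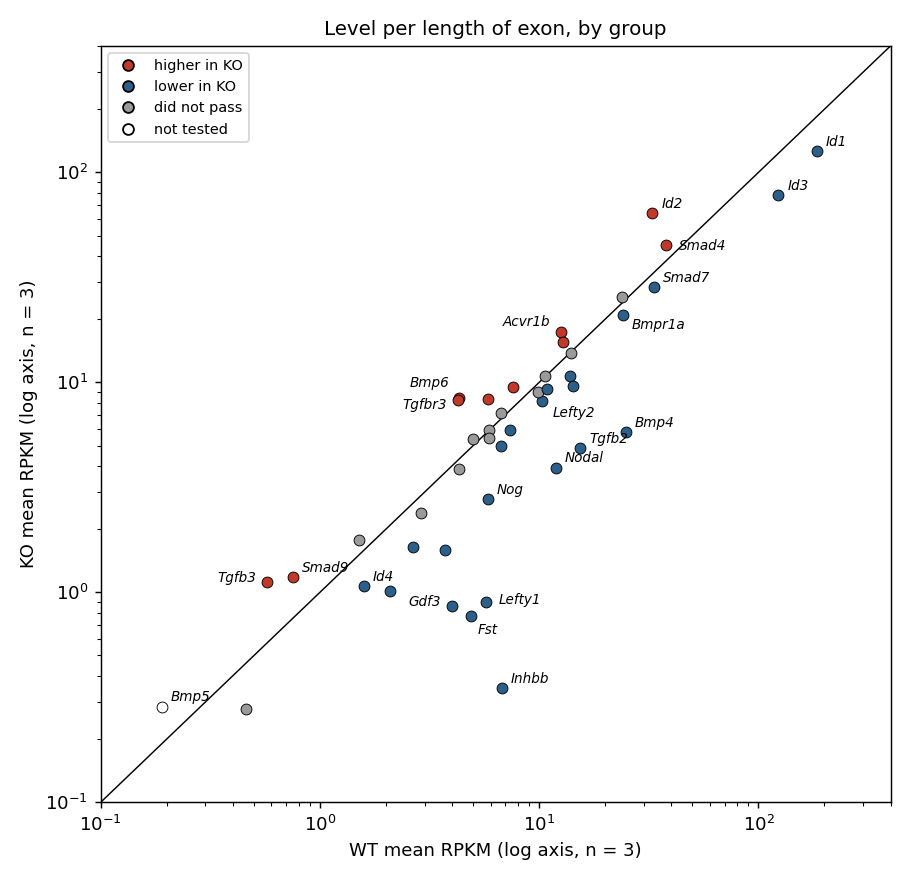
Mean level per length of exon (RPKM, log axes, n = 3 per group), KO vertical and WT horizontal, 1 point per member; the line marks equal levels. Id1 and Id3 lie highest, Inhbb, Lefty1, Fst and Gdf3 farthest below the line and Id2, Bmp6 and Tgfbr3 above it; Inhba, Cer1 and Grem1 lie under the axes and are not drawn.

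Beyond the 48 members, 102 further genes of the pathway and its targets were followed in 9 lists. Of the 80 tested, 15 rose, 42 fell and 23 did not pass (71.2% called, against 68.6% of all tested genes), with a median log2 fold change of -0.30. Genes commonly induced by TGF-beta fell in 7 of 8 and rose in 1. Ccn2, a matrix protein, was at a log2 fold change of -3.06 (SE 0.054) and Tagln, of smooth muscle, at -3.07 (SE 0.038), but genes on the other strand cover 23.2% and 67.9% of their exon length. Genes used here as BMP responses fell in 5 of 8 and rose in 1. Msx2, a homeobox factor, was at -0.65 (SE 0.097), Atoh8 at -1.59 (SE 0.29) and Hey1, also a Notch target, at 2.23 (SE 0.26). Hey1 had 61, 64 and 60 counts in KO, against 10, 17 and 15 counts in WT. It passed the filter on low counts through KO, and Cdx2, among those that fell, passed through WT. Nodal responses fell in 3 of 4 tested and rose in 0 by edgeR (0 also at an unadjusted p under 0.05; DESeq2 2 lower and 0 higher, limma-voom 3 and 0), with Eomes at -1.09 (SE 0.20) and Lhx1 at -0.81 (SE 0.27). Gsc, Mixl1 and T had too few counts to be tested. Several of these response genes (Cdx2, Eomes, Tfap2a, Col1a1, T and Mixl1) are also in the marker lists above.

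Genes that process or store ligands fell in 8 of 12 tested and rose in 1. The 1 that rose was Ltbp3, at 1.02 (SE 0.1), with 40.4 ± 4.19 CPM in KO and 19.8 ± 0.804 CPM in WT. Thbs1, thrombospondin 1, which activates latent TGF-beta, was at 26.5 ± 2.78 CPM in KO and 293.9 ± 2.45 CPM in WT (log2 fold change -3.47, SE 0.059), and Ltbp1, which stores it in the matrix, was at -1.23 (SE 0.053), and Fbn2, a fibrillin, at -0.77 (SE 0.049). The list of other ligands fell in 3 of 5 tested and rose in 0 by edgeR (0 also at an unadjusted p under 0.05, by DESeq2 and by limma-voom). One of the 3 is Bmp1, at -1.23 (SE 0.050), a protease that cleaves chordin and collagens and no ligand of this family. Of the ligands proper, Gdf6 was at -2.02 (SE 0.20) and Gdf15 at -1.34 (SE 0.27), while Bmp8a (0.19, SE 0.30) and Inha (-0.05, SE 0.27) did not pass.

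Coreceptors and other receptors rose in 3 and fell in 3 of 8 tested. Eng, endoglin, was at -1.75 (SE 0.089), Tdgf1, Cripto, a coreceptor for Nodal, at -3.03 (SE 0.42) and Rgmb, a BMP coreceptor, at -1.08 (SE 0.15). Tdgf1, with 4, 1 and 10 counts in KO, against 34, 49 and 50 counts in WT, passed the filter on low counts through WT. The 3 that rose were Cfc1 at 2.20 (SE 0.53), Acvrl1 at 1.37 (SE 0.29) and Neo1 at 0.11 (SE 0.047). Cfc1 had 14, 11 and 24 counts in KO, against 5, 1 and 5 counts in WT, and passed the filter through KO. Exons on the other strand cover 27.8% of its exon length. Other secreted modulators rose in 3 and fell in 2 of 9 tested, with Fstl1 at -0.63 (SE 0.040), Bmper, which binds BMPs, at 1.60 (SE 0.19) and Twsg1, which also binds them, at 0.32 (SE 0.050). Nuclear partners rose in 1 and fell in 5 of 10, with Zeb2, a Smad-binding repressor, at -1.66 (SE 0.11), Tgif1, a corepressor, at -0.54 (SE 0.053) and Ep300, a coactivator, at -0.45 (SE 0.046). Turnover genes and adaptors rose in 5 and fell in 6 of 16, with Fkbp1a, which holds type I receptors inactive, at -0.77 (SE 0.041), Pmepa1, a feedback inhibitor of TGF-beta signals, at -0.68 (SE 0.081) and Zfyve16, an endosomal adaptor, at 0.61 (SE 0.078).

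**Figure D5:**
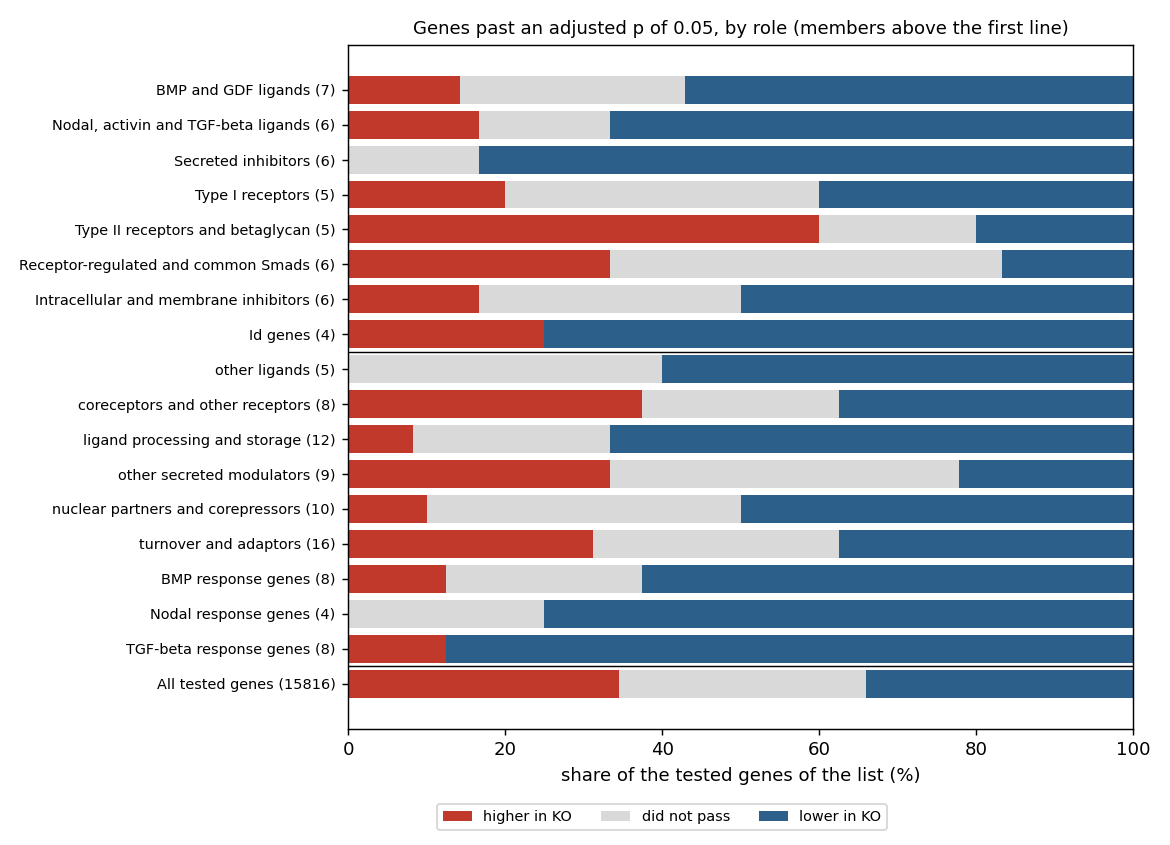
Share of tested genes (percent, horizontal axis; number tested in brackets) higher (red), lower (blue) or not past an adjusted p of 0.05 (grey) in KO, for 8 member roles, 9 further lists and all tested genes. Secreted inhibitors (83.3% lower) and TGF-beta response genes (87.5% lower) have the widest blue bars, and all tested genes stand at 34.5% higher and 34.0% lower.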

How the data were processed

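RNA of 3 KO and 3 WT libraries was analysed from whole-number read counts per Ensembl gene that the authors deposited without normalisation. The submitters' processing notes name HISAT2 2.1.0, HTSeq 0.9.1 and DESeq2 1.18.1, with mm10 as build; the annotation release, read layout and strand setting are not given in the sources used here. In the deposited count tables, the 5 tallies of reads given to no gene (no feature 42.3 to 43.5% of each library) stayed out of library sizes and tests, and genes held 36.0 to 38.4%.

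Symbols, positions and exon lengths came from GENCODE M21 (GRCm38, the same build as mm10), which matched 52403 of 52636 identifiers. Hjv was matched through its older symbol Hfe2. Of 61 single-exon genes lying inside an exon on the other strand, 44 had a read density of 0.2 or more of the host gene's, so the counts were taken as not separating strands. Promoters came from RefSeq (GRCm38.p6).

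Counts were fitted with edgeR 4.0.16 in R 4.3.3 on all 6 libraries, with filterByExpr (minimum count 10), TMM scaling and quasi-likelihood tests, adjusted by Benjamini-Hochberg over 15816 genes and called at 0.05. Fold changes, on the log2 scale, are KO over WT, and the SE is the fold change over the root of its F. RPKM uses the union of a gene's exons. The procedure was also run on simulated counts in which a small part of the genes changed. In these data 68.6% of tested genes were called, so that run does not test this setting. The members and lists were chosen with earlier results of these data known. Values in every library are given for members past the threshold with a log2 fold change of at least 1 in size and 5 CPM, and for the Id genes and BMP ligands tested; up to 3 genes with the smallest adjusted p are named from each further list, except 2 that are not reported here, and other members by their values. Alternatives were RLE and upper-quartile scaling, DESeq2 1.42.0, limma-voom (limma 3.58.1), other filters, the replicate block, mitochondrial and ribosomal RNA repeat genes left out, and each library left out. No pair of libraries agreed within sampling noise. Protein comparisons were not made.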

Additional observations from a re-analysis of the deposited data

How the results depend on the processing

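Of the 45 tested members, 37 kept their side of the threshold under every alternative run, 29 of them called and 8 not. The 29 also kept their direction; of the 8, Bmp7 (-0.04 to 0.04), Smad2 (-0.03 to 0.09) and Smad6 (-0.13 to 0.09) changed sign under some alternatives. The other 8 were Bmp8b, Tgfb1, Tgfb3, Bmpr1b, Bmpr2, Smad9, Skil and Id4; Tgfb1 passed without KO replicate 2 (adjusted p by edgeR 0.0256) and Bmpr1b without WT replicate 3 (0.0357), and the cause was not tested. Members higher in KO numbered 7 to 12 and lower 16 to 23 under the other settings, the lowest being those without the members that overlap exons on the other strand, and 9 to 12 and 22 to 23 with a library left out. Over all genes the counts were 4918 to 5769 higher and 5005 to 5711 lower, and 5186 to 5305 and 5163 to 5280 with a library left out. Deviations from the group means, taken over all tested genes, correlated at -0.0131 to 0.0133 between same-numbered KO and WT libraries. These values show no broad pairing by number, but they cannot exclude a batch that acts on some genes. The replicate block gave 11 members higher and 23 lower, with Skil as the added call (adjusted p by edgeR 0.0385). No other member's call changed with the block. Upper-quartile scaling moved the all-gene median, on the log2 scale, to 0.046. Counts limit what Inhba, Smad9, Tgfb3 and Id4 can show, and the fitted fold change of Inhba, which has 0 counts in KO, was -7.14 by edgeR, -6.53 by DESeq2 and -5.08 by limma-voom and is no bound.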
